A study of Mus musculus with 16 samples.

Results

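The MHC class II pathway was followed through 8 genes, chosen for their roles in antigen presentation and not for their values here: the chains H2-Aa, H2-Ab1 and H2-Eb1, the peptide editor genes H2-DMa and H2-DMb1, Cd74, Ctss and Ciita. They take 9 of the 22372 entries of the deposited table of protein-coding genes, since Ciita is listed under 2 identifiers. The RNA came from ventricular tissue of C57BL/6J mice, 10 to 12 weeks old when the experiment began. The mice had undergone transverse aortic constriction (TAC), which narrows the aortic arch and loads the left ventricle with pressure, or a sham operation without the constriction. Sham-Veh and TAC-Veh mice received vehicle. Sham-THZ1 and TAC-THZ1 mice received THZ1, a covalent inhibitor of the transcription kinases CDK7, CDK12 and CDK13, by intraperitoneal injection, 2 doses of 10 mg/kg a day, from postoperative day 1 until day 60. Each of the 4 groups held 4 replicate libraries, 16 in all, which the study's methods describe as distinct samples. Replicates of a group differed by more than sampling noise, with a chi-square per degree of freedom of 3.06 to 98.3 between pairs of libraries.

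Class II molecules are heterodimers of an α and a β chain that display peptides from the endosomal pathway to CD4+ T cells. The α and β chains assemble on the invariant chain encoded by Cd74. The protease cathepsin S, the product of Ctss, cleaves the invariant chain, and H2-DM exchanges the remaining fragment for peptide. Ciita encodes the transactivator that is recruited to the X and Y boxes of class II promoters by the RFX complex, CREB and NF-Y. In the heart, class II transcripts come mainly from resident and recruited macrophages, dendritic cells and B cells. C57BL/6 mice carry no functional H2-Ea gene and make no H2-E protein, so H2-Eb1 is measured here as a transcript only.

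Promoter sequences of 5 of the 8 genes were matched in the RefSeq tables on GRCm38.p6, and H2-Ab1, Cd74 and Ciita were not matched. They are shown because 3 of these 5, the chain and editor genes H2-Aa, H2-Eb1 and H2-DMb1, hold letters that match the cores of the X and Y boxes at a like spacing, and because Ctss does not. Capitals mark the X box core (CTNNNAAC) followed by the Y box core (GATTGG), and in Ctss the core of an interferon-stimulated response element. The sequences lie at chr17:34287852-34287922 on the minus strand for H2-Aa, at chr17:34305758-34305827 on the plus strand for H2-Eb1, at chr17:34153079-34153149 on the plus strand for H2-DMb1, and at chr3:95526740-95526799 on the plus strand for Ctss. Promoters of H2-DMb2, the near-identical neighbour of H2-DMb1, at chr17:34145108-34145178, and of H2-Ob, a chain of the H2-DM antagonist H2-O, at chr17:34238800-34238867, both on the plus strand, are given for comparison.
H2-Aa: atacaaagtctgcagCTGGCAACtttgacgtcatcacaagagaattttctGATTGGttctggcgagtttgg
H2-Eb1: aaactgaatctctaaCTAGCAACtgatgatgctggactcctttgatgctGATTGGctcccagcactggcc
H2-DMb1: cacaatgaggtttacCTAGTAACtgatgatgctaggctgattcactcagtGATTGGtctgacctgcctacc
H2-DMb2: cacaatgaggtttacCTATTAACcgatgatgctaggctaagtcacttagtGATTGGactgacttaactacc
H2-Ob: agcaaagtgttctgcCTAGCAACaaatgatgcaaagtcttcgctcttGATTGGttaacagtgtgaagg
Ctss: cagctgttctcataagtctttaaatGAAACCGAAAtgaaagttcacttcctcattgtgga

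The gap from the X to the Y core was 27 bases in H2-Aa, H2-DMb1 and H2-DMb2, 26 in H2-Eb1 and 24 in H2-Ob. The X core began 84, 94 and 97 bases before the annotated start in H2-Aa, H2-Eb1 and H2-DMb1. Both strands were searched, the X and Y cores share no bases, and the letters and gaps were chosen after the sequences had been read. Of 32851 mouse promoters of the same length, 41.1% held the X core, 16.1% the Y core, 0.183% an X core followed by a Y core after 18 to 30 bases, and 3.44% the element marked in Ctss. The X core alone is therefore common and the spaced pair is rare. A match of letters is a description and not a binding site, and no factor binding was measured here. The promoters of H2-DMa held no such pair of letters. Among promoters of other class II pathway genes searched, those of H2-DMb2 and H2-Ob held the pair, and those of H2-Oa, H2-Eb2 and Ifi30 did not.

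Read totals recovered from the deposited values were 21.4 to 35.8 M (mega reads) per library with a median of 28.2 M, of which 33.2 to 44.7% were mitochondrial. The floor of 3 reads corresponded to 2.15 to 4.01 normalized counts (reads divided by the library's size factor), and such floors cover counting error only. Of 14 macrophage markers all passed the filter on low values. None had a mean under 10 normalized counts in any group, so macrophage transcripts were present in every group. Neutrophil transcripts were high in 3 TAC-THZ1 libraries, most of all in replicates 1 and 3: the summed normalized counts of S100a8, S100a9, Csf3r and Retnlg were 7030, 938, 3023 and 204 in TAC-THZ1 replicates 1 to 4, against 121 to 276 in TAC-Veh, 49.9 to 97.3 in Sham-Veh and 80.0 to 537 in Sham-THZ1. Results that rest on TAC-THZ1 replicates 1 and 3 are therefore also given without them, a choice made after the data were seen. Where these replicates are the highest of the group, leaving them out can only lower the fold change. Such fits keep TAC-THZ1 replicates 2 and 4 alone, so calls lost or gained in them only describe these libraries.

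All 8 genes passed the filter (at least 10 normalized counts in at least 4 libraries) under 1 identifier each. The second entry for Ciita did not pass. On NCBIM37, the build of the files, 5 of the genes lie in the class II region of chromosome 17. H2-DMa is at chr17:34272127-34276046, H2-DMb1 at chr17:34290017-34297168, H2-Ab1 at chr17:34400154-34406363 and H2-Eb1 at chr17:34442828-34453144, all on the plus strand. H2-Aa, at chr17:34406276-34424772 on the minus strand, overlaps the end of H2-Ab1, and counting was stranded. Cd74 is at chr18:60963502-60972300, Ciita at chr16:10480237-10527657 and Ctss at chr3:95330708-95360325, all on the plus strand. Reads of H2-DMb1 may be shared with H2-DMb2, so the split between these 2 genes is uncertain.

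Per kilobase of exon, the class II genes spanned a wide range of levels. Cd74 had the highest mean over the 16 libraries at 1944 normalized counts per kb, followed by H2-Eb1 at 1022, H2-Aa at 772, H2-Ab1 at 645 and Ctss at 585. H2-DMa (69.6), H2-DMb1 (53.5) and the regulator Ciita (8.35) were far lower. Each step in this order held in 16 of 16 libraries except that from H2-Ab1 to Ctss, whose order differed by group. H2-Ab1 was above Ctss in all 8 sham libraries (means of 681 and 429 per kb in Sham-Veh) and below it in all 4 TAC-Veh libraries (500.3 and 832 per kb). In TAC-THZ1 it was above Ctss in 3 of 4 libraries, with means of 781 and 664 per kb.

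**Figure D1:**
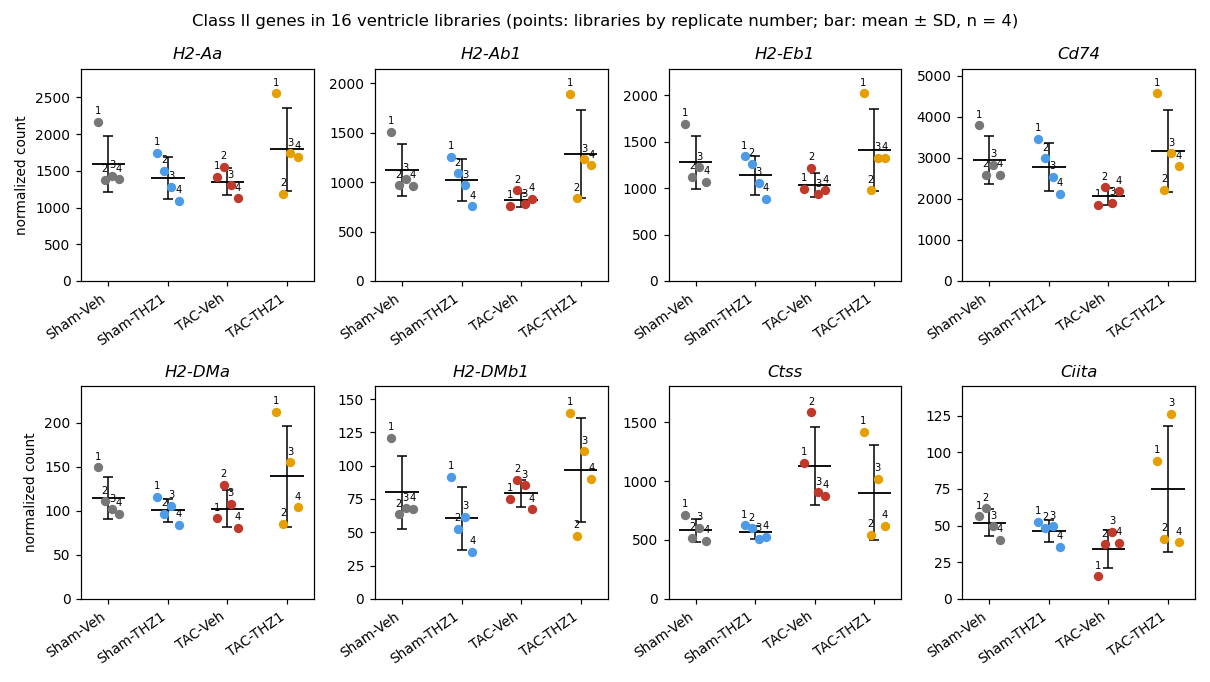
Normalized counts of the 8 class II genes (y axes, each from 0) in the 16 libraries by group (x axes), with a point for each library and the mean and SD of 4. Ctss is the gene with the highest TAC-Veh values relative to Sham-Veh, Cd74 and H2-Ab1 lie lower in TAC-Veh than in Sham-Veh, and TAC-THZ1 has the largest SD of the 4 groups in all 8 genes.

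TAC-Veh against Sham-Veh asks how pressure overload changed these transcripts. The protease gene Ctss rose 1.90-fold and Cd74, which encodes the invariant chain, fell to 0.705-fold, while the 3 chain genes, the H2-DM genes and Ciita did not pass the test. Ctss and Cd74 thus moved in opposite directions. These 2 calls among 8 genes compare with 45.0% of the 13331 genes tested (21.4% higher and 23.6% lower). The median log2 fold change of the 8 was −0.25, against 0.00 over all genes.

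Ctss was at 713, 519.8, 606 and 492 normalized counts in Sham-Veh and at 1156, 1585, 904 and 875 in TAC-Veh. Every TAC-Veh library was above every Sham-Veh library. The log2 fold change was 0.93 (SE 0.245), with an adjusted p of 0.00579 from limma over all genes.

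Cd74 was at 3793, 2592, 2825 and 2583 normalized counts in Sham-Veh and at 1856, 2284, 1912 and 2187 in TAC-Veh. The groups did not overlap, and Sham-Veh replicate 1 was the highest library. The log2 fold change was −0.50 (SE 0.187, adjusted p = 0.0370, limma). It was not called without Sham-Veh replicate 1 (−0.38, adjusted p = 0.127), Sham-Veh replicate 3 (adjusted p = 0.0597), TAC-Veh replicate 1 (adjusted p = 0.0802) or TAC-Veh replicate 3 (adjusted p = 0.0758), each by limma.

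H2-Ab1, the β chain of H2-A, was at 1511, 967, 1034 and 964 normalized counts in Sham-Veh and at 763, 918, 776 and 833 in TAC-Veh. The groups did not overlap, but the log2 fold change of −0.42 (SE 0.204) had an adjusted p of 0.103 by limma. Its partner, the α chain gene H2-Aa, was at 2165, 1377, 1433 and 1382 in Sham-Veh and at 1418, 1558, 1304 and 1125 in TAC-Veh, and here the groups overlapped. With an SE of 0.202 the difference was −0.22 on the log2 scale (adjusted p = 0.404, limma). The means of both partners were thus lower in TAC-Veh, neither past the threshold.

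H2-Eb1 was at 1694, 1125, 1224 and 1066 normalized counts in Sham-Veh and at 992, 1221, 932 and 976 in TAC-Veh (log2 fold change −0.29, SE 0.190, adjusted p = 0.223, limma). Ciita was at 56.2, 61.8, 49.5 and 40.2 in Sham-Veh and at 15.3, 37.2, 45.6 and 38.3 in TAC-Veh (−0.68, SE 0.359, adjusted p = 0.135). In both genes the groups overlapped, and TAC-Veh replicate 1 was by far the lowest library of Ciita. H2-DMa (−0.16, SE 0.234) and H2-DMb1 (0.03, SE 0.308) had adjusted p-values of 0.604 and 0.947. Across all 16 libraries H2-DMa ran from 80.9 to 213 normalized counts and H2-DMb1 from 35.5 to 139.8. The sign of H2-DMb1 turned under quantile scaling, where its log2 fold change was −0.10. In all, 3 of the 8 genes (H2-Ab1, Cd74 and Ctss) had groups that did not overlap, against 37.3% of all genes tested.

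**Figure D2:**
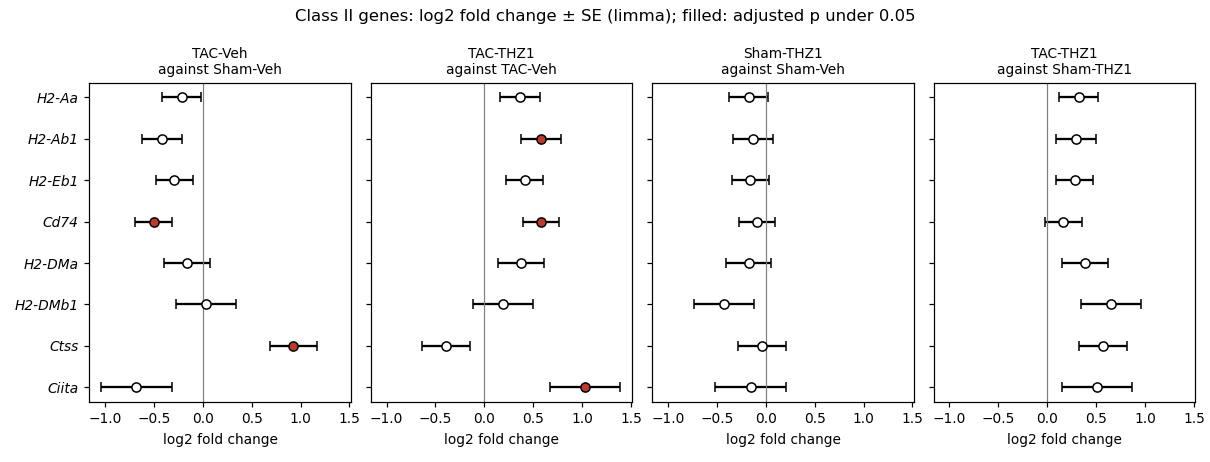
Log2 fold change of each class II gene with its SE (x axes) in the comparisons fitted (panels), with genes on the y axis and filled points for an adjusted p under 0.05. Filled points are Ctss and Cd74 for TAC-Veh against Sham-Veh, and Cd74, H2-Ab1 and Ciita for TAC-THZ1 against TAC-Veh.

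TAC-THZ1 against TAC-Veh asks how the drug changed these transcripts under pressure overload. Ciita rose 2.05-fold, and H2-Ab1 and Cd74 rose as well, by 49.8% and 49.4%. The other chain and editor genes were not called, with log2 fold changes of 0.19 to 0.41, and Ctss had a negative one. The 3 calls, all higher, compare with 29.4% of all genes tested (15.1% higher and 14.2% lower), and the median log2 fold change of the 8 was 0.39 against 0.01 over all genes. This comparison shares the TAC-Veh libraries with the one above, so the 2 are not independent.

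Ciita was at 93.9, 40.7, 126 and 38.6 normalized counts in TAC-THZ1 replicates 1 to 4. Replicates 1 and 3 were high and replicates 2 and 4 lay among the TAC-Veh values. The log2 fold change was 1.03 (SE 0.359, adjusted p = 0.0396, limma). Without replicates 1 and 3, the highest of the group, the log2 fold change could only be lower, and it was 0.32 (adjusted p = 0.520).

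Cd74 was at 4571, 2225, 3108 and 2798 normalized counts in TAC-THZ1. Replicates 1, 3 and 4 were above every TAC-Veh library and replicate 2 was among them. The log2 fold change was 0.58 (SE 0.187, adjusted p = 0.0284, limma), and 0.28 (adjusted p = 0.279) without replicates 1 and 3.

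H2-Ab1 was at 1897, 838, 1230.3 and 1169 normalized counts in TAC-THZ1, with the same replicate inside the TAC-Veh range. The log2 fold change was 0.58 (SE 0.204, adjusted p = 0.0405, limma), and 0.27 (adjusted p = 0.351) without replicates 1 and 3. None of the 8 genes had groups that did not overlap, against 20.0% of all genes tested.

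The 3 calls changed with single libraries. By limma, Cd74 was not called without TAC-Veh replicate 1 (adjusted p = 0.0571), TAC-Veh replicate 3 (0.0525), TAC-THZ1 replicate 1 (0.0945) or TAC-THZ1 replicate 3 (0.0516). Ciita was not called without TAC-Veh replicate 1 (adjusted p = 0.115), TAC-Veh replicate 2 (0.0593), TAC-THZ1 replicate 1 (0.110) or TAC-THZ1 replicate 3 (0.129). H2-Ab1 was called only in the full set and without TAC-THZ1 replicate 2 among the 8 such fits, with adjusted p-values of 0.0554 to 0.137 in the other 7. Without TAC-THZ1 replicate 2, H2-Aa (0.55, adjusted p = 0.0497) and H2-Eb1 (0.58, adjusted p = 0.0347) were called higher as well.

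H2-Aa was at 2557, 1184, 1737 and 1693 normalized counts in TAC-THZ1 (log2 fold change 0.36, SE 0.202, adjusted p = 0.186, limma). H2-Eb1 was at 2025, 975, 1327 and 1325 (0.41, SE 0.190, adjusted p = 0.111). In both chain genes replicate 1 was the highest and replicate 2 the lowest of the 4. H2-DMa (0.37, SE 0.234, adjusted p = 0.246) and H2-DMb1 (0.19, SE 0.308, adjusted p = 0.681) followed the same order of libraries at lower levels.

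Ctss was at 1421, 545, 1017 and 621 normalized counts in TAC-THZ1, with a mean of 901 ± 404 (SD, n = 4) against 1129.8 ± 329 in TAC-Veh. The log2 fold change was −0.39 (SE 0.245, adjusted p = 0.246, limma). Ctss was called lower without TAC-THZ1 replicate 1 (−0.65, adjusted p = 0.0371) and without replicates 1 and 3 (−0.91, adjusted p = 0.00590). In replicates 2 and 4 it was below every TAC-Veh library.

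Sham-THZ1 against Sham-Veh asks what the drug did without constriction. No class II gene was called by limma, edgeR or DESeq2, and none had an unadjusted p under 0.05. The log2 fold changes ran from −0.43 for H2-DMb1 to −0.03 for Ctss, all below 0. Of all genes tested, 0.0675% were called. Cd74 was at 3463, 2993, 2539 and 2127 normalized counts in Sham-THZ1, and H2-Ab1 at 1258, 1089.8, 969.7 and 757, both overlapping Sham-Veh.

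TAC-THZ1 against Sham-THZ1 gave log2 fold changes of 0.16 (Cd74) to 0.65 (H2-DMb1) and no call by limma, with 1 gene, Ctss, at an unadjusted p under 0.05 (0.57, SE 0.245, adjusted p = 0.0991). By DESeq2 Ctss was called (0.67, adjusted p = 0.0295), and by edgeR no gene was. Without TAC-THZ1 replicate 2, limma called Ctss (0.78, adjusted p = 0.0268) and H2-DMb1 (0.96, adjusted p = 0.0210). Of all genes tested, 24.2% were called.

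The difference between the THZ1 effect in TAC and that in sham was tested directly. None of the 8 genes was called by limma, edgeR or DESeq2, and 4 had an unadjusted p under 0.05 by limma: Ciita (1.19, SE 0.508, adjusted p = 0.142), H2-Ab1 (0.72, SE 0.288, adjusted p = 0.121), Cd74 (0.67, SE 0.264, adjusted p = 0.115) and H2-Eb1 (0.57, SE 0.268, adjusted p = 0.179). Of all genes tested, 10.0% were called. A different response of class II genes to the drug in TAC and in sham hearts was therefore not shown at the adjusted threshold.

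As leukocytes, macrophages above all, carry class II, each gene was also set against Ptprc, the pan-leukocyte gene CD45, and Csf1r, the macrophage colony-stimulating factor receptor, in the same library. In bulk tissue, fewer cells of a type and less RNA per cell cannot be told apart. Csf1r itself was at 1449 ± 54.4 (SD, n = 4) normalized counts in Sham-Veh, 1780 ± 313 in TAC-Veh, 1407 ± 102 in Sham-THZ1 and 1610.0 ± 351 in TAC-THZ1, with a log2 fold change in TAC of 0.28 (SE 0.133, adjusted p = 0.0957, limma) and in THZ1-treated TAC of −0.15 (SE 0.133, adjusted p = 0.408).

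Per Csf1r transcript, Cd74, H2-Ab1, H2-Eb1 and H2-DMa had no overlap between TAC-Veh and either Sham-Veh or TAC-THZ1, with TAC-Veh the lowest. None passed the adjusted threshold, which 4 libraries against 4 could hardly reach. The ratio of H2-Aa overlapped in both comparisons (exact permutation p = 0.0857 and 0.0571). The ratio of Cd74 to Csf1r was 2.50, 1.84, 1.92 and 1.84 in Sham-Veh, 1.29, 1.21, 1.17 and 1.01 in TAC-Veh, and 2.24, 1.82, 1.82 and 1.90 in TAC-THZ1. The TAC-Veh libraries stood below all others of these groups. Within TAC-THZ1, replicate 1 had the highest ratio, and replicates 2, 3 and 4 lay close together. The part of neutrophil content in these ratios was not tested. The log2 difference was −0.79 (SE 0.129) for TAC-Veh against Sham-Veh and 0.73 (SE 0.101) for TAC-THZ1 against TAC-Veh, each with p = 0.0286 in an exact permutation test, two-sided, where 4 libraries against 4 can reach no lower value.

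H2-Ab1 to Csf1r was 0.996, 0.687, 0.705 and 0.688 in Sham-Veh, 0.529, 0.486, 0.477 and 0.386 in TAC-Veh, and 0.928, 0.686, 0.721 and 0.796 in TAC-THZ1. The same pattern of non-overlapping groups was seen, with log2 differences of −0.70 (SE 0.163) and 0.74 (SE 0.136). In TAC-Veh against Sham-Veh 5 of the 8 ratios to Csf1r were lower without overlap (H2-Ab1, H2-Eb1, Cd74, H2-DMa and Ciita), where 32.0% of all genes were. In TAC-THZ1 against TAC-Veh 4 of the 8 were higher without overlap (H2-Ab1, H2-Eb1, Cd74 and H2-DMa), where 3.35% of all genes were. The members vary together across libraries, so these counts are not independent, and no set test was made.

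No ratio was called after Benjamini-Hochberg adjustment over the 48 ratio comparisons, the lowest adjusted p from the exact permutation tests being 0.114. No exact permutation p could fall below 0.0286, so a call would have needed most of the 48 at that floor together. The adjustment therefore cannot decide for single ratios. The ratio of Ciita to Csf1r differed by −0.96 (SE 0.304) in TAC without overlap and by 1.19 (SE 0.421, exact permutation p = 0.0571) in TAC-THZ1 against TAC-Veh. Ctss to Csf1r differed by 0.65 (SE 0.263, exact permutation p = 0.0857) in TAC. To Ptprc, 3 of the 8 ratios did not overlap in TAC (Cd74 and H2-Ab1 lower, Ctss higher), where 20.9% of all genes did not, and none in TAC-THZ1 against TAC-Veh, where 4.53% of all genes did not. In Sham-THZ1 against Sham-Veh no ratio was without overlap.

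**Figure D3:**
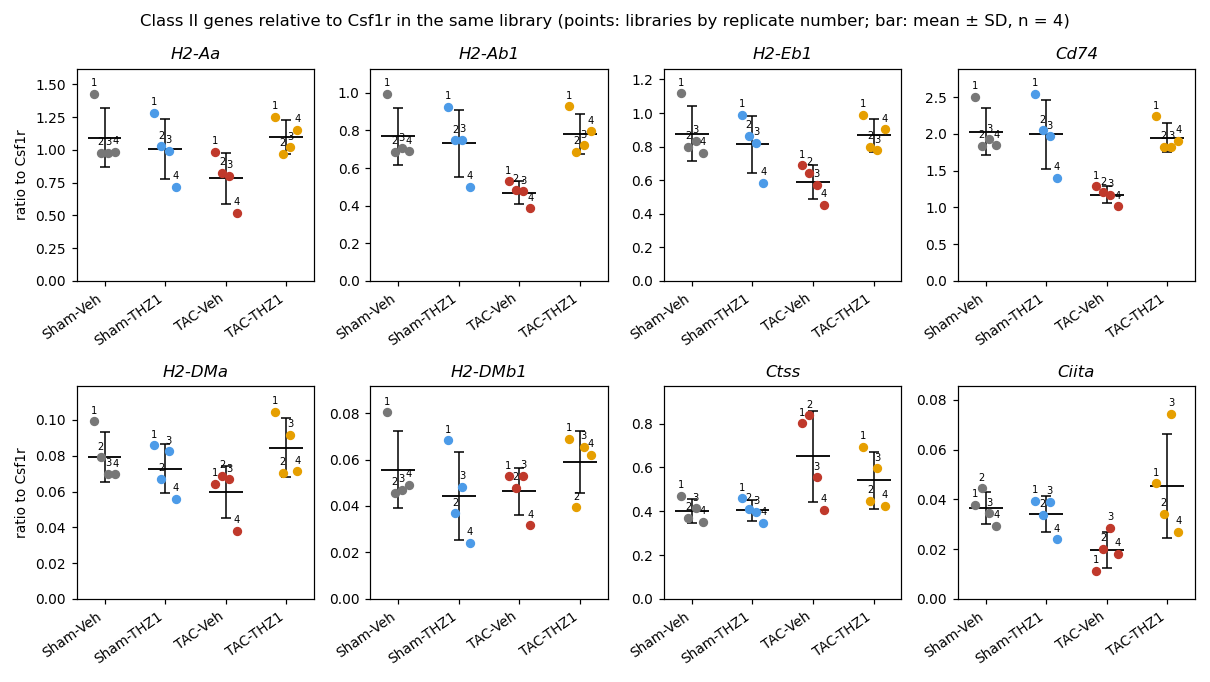
Ratio of each class II gene to Csf1r in the same library (y axes, from 0) by group (x axes), with a point for each library and the mean and SD of 4. For Cd74 the TAC-Veh libraries lie between 1.01 and 1.29, below every library of the other 3 groups.

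The chain genes varied together from library to library. Over the 16 libraries, the Pearson r of log2 values between H2-Aa, H2-Ab1, H2-Eb1 and Cd74 was 0.86 to 0.98 in 6 pairs, and 0.92 to 0.99 after group means were taken off. With H2-DMa and H2-DMb1 added, the 15 pairs had r of 0.61 to 0.98. Ctss was less close to these 6 genes (0.07 to 0.62 over all libraries, 0.70 to 0.89 within groups), and so was Ciita (0.45 to 0.71, and 0.37 to 0.67 within groups). These correlations describe libraries that share depth and tissue makeup. The mean centred log2 level of the 6 genes was highest in TAC-THZ1 replicate 1 (0.84) and Sham-Veh replicate 1 (0.54) and lowest in Sham-THZ1 replicate 4 (−0.51) and TAC-THZ1 replicate 2 (−0.37).

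Among the 10311 genes whose mean reached 100 normalized counts, the 5 most like this mean level over the 16 libraries were H2-Q4 (r = 0.85), H2-K1 (0.85), H2-D1 (0.80), H2-Q7 (0.80) and Igtp (0.79). The first 4 are class I genes, whose near-identical sequences make the assignment of reads uncertain, and Igtp encodes an interferon-inducible GTPase. After group means were taken off, the 5 were B2m (0.96), which encodes the light chain of class I, H2-D1 (0.93), H2-K1 (0.90), Ly86 (0.89) and Olfm1 (0.89). Igtp was at 1697, 297, 1888 and 304 normalized counts in TAC-THZ1, so replicates 1 and 3 were high and replicates 2 and 4 were not. In TAC-Veh it was lowest in replicate 1 (193), as Ciita was. Its log2 fold change in TAC-THZ1 against TAC-Veh was 1.34 (adjusted p = 0.0479, limma), and 0.050 (adjusted p = 0.909) without replicates 1 and 3. Leaving out 1 library ended the call of Igtp for TAC-Veh replicate 1 (adjusted p = 0.106), 2 (0.0719), 3 (0.0581) or 4 (0.0619) and TAC-THZ1 replicate 1 (0.157) or 3 (0.155).

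**Figure D4:**
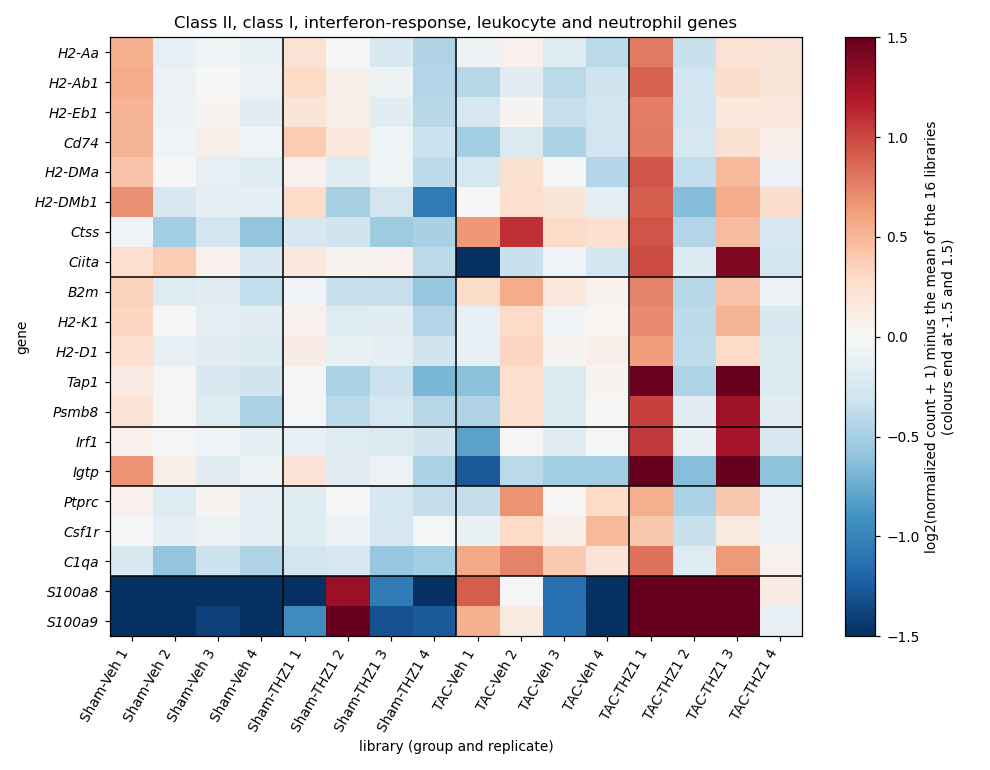
Log2(normalized count + 1) minus the mean of the 16 libraries (colour, ending at −1.5 and 1.5) for class II, class I, interferon-response, leukocyte and neutrophil genes (rows) in each library (columns); Tap1 and Psmb8 were added after their values were seen. TAC-THZ1 replicates 1 and 3 are high for Igtp, Irf1, Tap1 and Psmb8, while S100a8 and S100a9 are high in replicate 2 as well. Of the class II genes, Ciita and H2-DMa are highest in TAC-THZ1 replicates 1 and 3.

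The other genes of the class II pathway were taken from a list of 23, of which 22 were in the table and 20 were tested. In TAC-Veh against Sham-Veh 10 were called higher and 2 lower, where 21.4% and 23.6% of all genes were, and the median log2 fold change was 0.34 against 0.00 over all genes. Among the higher was Cst3, which encodes the inhibitor cystatin C and rose by 0.74 on the log2 scale (adjusted p = 0.000289, limma). Genes of lysosomal proteases rose as well, the cathepsin genes Ctsl, Ctsd and Ctsb by 0.56, 0.45 and 0.35 (adjusted p = 0.000524, 0.000953 and 0.00148). Lgmn, encoding legumain, rose by 0.34 and Ifi30, encoding the lysosomal thiol reductase GILT, by 0.57. The co-stimulatory genes Cd80 (1.26), Cd40 (0.63) and Cd86 (0.61) rose, as did March1 (0.56), whose product ubiquitinates class II. Cd86 was not called without Sham-Veh replicate 4 (adjusted p = 0.0557) or TAC-Veh replicate 1 (adjusted p = 0.0501).

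The 2 lower genes encode factors of class II promoters, the NF-Y subunit Nfyc (−0.44, adjusted p = 4.34e-05, limma) and Creb1 (−0.36, adjusted p = 0.000437). The RFX genes Rfx5, Rfxap and Rfxank, named after their values were seen, were not called. Ctsh, another cathepsin gene of the list, named after its value was seen, was at 0.03 (SE 0.0965, adjusted p = 0.819). The proteases thus did not move as 1 group.

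In TAC-THZ1 against TAC-Veh 1 gene of this list was called higher and 6 lower, where 15.1% and 14.2% of all genes were. The total of 7 among 20 is near the share of 29.4% called over all genes, and the median log2 fold change was −0.22 against 0.01. Nfyc rose by 0.33 (adjusted p = 0.00140, limma). Ctsb (−0.35, adjusted p = 0.00339), Lgmn (−0.31, adjusted p = 0.00917), Cst3 (−0.45, adjusted p = 0.0179), Rfx5 (−0.29, adjusted p = 0.0236), Cd80 (−0.99, adjusted p = 0.0244) and Ctsd (−0.28, adjusted p = 0.0336) fell. Without TAC-THZ1 replicates 1 and 3, Cst3 (adjusted p = 0.0699), Rfx5 (0.0512) and Ctsd (0.0756) were not called.

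Single libraries also moved these calls. By limma, Rfx5 was not called without TAC-Veh replicate 2 (adjusted p = 0.0676), TAC-THZ1 replicate 1 (0.0614), TAC-THZ1 replicate 2 (0.0507) or TAC-THZ1 replicate 4 (0.0555). Cd80 was not called without TAC-Veh replicate 2 (adjusted p = 0.0955) or TAC-THZ1 replicate 2 (0.0901), and Ctsd without TAC-Veh replicate 1 (0.0923), TAC-Veh replicate 2 (0.0553), TAC-THZ1 replicate 2 (0.0787) or TAC-THZ1 replicate 3 (0.103). Ctsb and Lgmn were called whichever 1 library was left out. H2-DMb2 had mean normalized counts of 7.28 in Sham-Veh, 12.2 in TAC-Veh, 6.33 in Sham-THZ1 and 6.96 in TAC-THZ1, and was not called in either comparison (adjusted p = 0.107 and 0.0856), and reads may be shared with H2-DMb1.

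Class I presentation and the inducers of Ciita were followed with 2 further lists. Over all genes tested, 45.0% were called in TAC-Veh against Sham-Veh and 29.4% in TAC-THZ1 against TAC-Veh. Of 10 class I presentation genes tested, Psmb10, an immunoproteasome subunit, rose (0.72, adjusted p = 0.000255, limma) and Erap1, a peptide-trimming aminopeptidase, fell (−0.32, adjusted p = 0.00147) in TAC-Veh. In TAC-THZ1 against TAC-Veh 1 of the 10 was called, Tap2, a subunit of the peptide transporter (0.58, adjusted p = 0.0176, limma), and it was not called without TAC-THZ1 replicate 1 (adjusted p = 0.0604), TAC-THZ1 replicate 3 (0.0570) or both (0.17, adjusted p = 0.320).

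Interferon-γ is the classical inducer of Ciita, and its transcript Ifng had 0 reads in all Sham-Veh and TAC-THZ1 libraries, which allows up to 3 reads a library, and at most 2 in any library. Of 9 genes of its pathway tested, the receptor chain gene Ifngr1 rose (0.79, adjusted p = 8.95e-06, limma), and Ifngr2 (−0.27, adjusted p = 0.00621) and Jak1 (−0.37, adjusted p = 0.000447) fell in TAC-Veh. The share called over all genes was 45.0% in that comparison and 29.4% in the next. In TAC-THZ1 against TAC-Veh, Ifngr1 fell (−0.53, adjusted p = 0.000873) while Ifngr2 (0.21, adjusted p = 0.0347) and Irf1 (0.73, adjusted p = 0.0460), a transcription factor of the response, rose. Irf1 was at 1613, 722, 1824 and 658 normalized counts in TAC-THZ1, high in replicates 1 and 3 as Ciita was. Without those replicates its log2 fold change was 0.07 (adjusted p = 0.790).

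By limma, Irf1 was not called without TAC-Veh replicate 1 (adjusted p = 0.126), TAC-Veh replicate 2 (0.0553), TAC-Veh replicate 3 (0.0556), TAC-THZ1 replicate 1 (0.145) or TAC-THZ1 replicate 3 (0.149). Ifngr2 in TAC-THZ1 against TAC-Veh was not called without TAC-Veh replicate 1 (adjusted p = 0.0926), TAC-Veh replicate 2 (0.0901), TAC-THZ1 replicate 2 (0.0729), TAC-THZ1 replicate 3 (0.0594) or TAC-THZ1 replicate 4 (0.107). The calls of Ifngr1 in both comparisons did not rest on any 1 library.

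Markers of the cells that carry class II moved in part with these genes, and their part in the results was not tested. For the marker counts, the shares over all genes were 21.4% higher and 23.6% lower in TAC-Veh against Sham-Veh. In TAC-THZ1 against TAC-Veh they were 15.1% higher and 14.2% lower. Summed over 14 macrophage markers, normalized counts were 8047 to 9468 in Sham-Veh, 11741 to 14213 in TAC-Veh and 8592 to 16044 in TAC-THZ1. In TAC 5 of the 14 were called higher, C1qa, a complement gene, among them (0.87, adjusted p = 0.000868, limma), and in TAC-THZ1 against TAC-Veh its log2 fold change was −0.14 (adjusted p = 0.576), and −0.54 (adjusted p = 0.0149) without replicates 1 and 3. Of 4 pan-leukocyte markers 3 were called higher in TAC, with a median log2 fold change of 0.62 over the 4. Ptprc was not among those called, at 297 ± 27.0, 356 ± 108 and 341 ± 105 (SD, n = 4) in Sham-Veh, TAC-Veh and TAC-THZ1. C1qa thus rose in TAC-Veh while Cd74 fell.

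B cell transcripts were scarce: the sum over 6 markers was 80.5 to 91.2 in Sham-Veh, 94.1 to 138 in TAC-Veh and 43.7 to 107 in TAC-THZ1, and Cd79a (−0.83, adjusted p = 0.0484, limma) and, named after its value was seen, Cd79b (−0.93, adjusted p = 0.0149) fell in TAC-THZ1 against TAC-Veh. The other 2 of the 4 B cell markers tested were not called, and the part of B cells in the class II values was not tested. Without replicates 1 and 3, Cd79a (−0.69, adjusted p = 0.205) and Cd79b (−0.76, adjusted p = 0.0741) were not called. Cd79b was also lost without TAC-THZ1 replicate 1 alone (adjusted p = 0.0502), and Cd79a without TAC-Veh replicate 1 (0.0835), 2 (0.160) or 3 (0.0577) or TAC-THZ1 replicate 1 (0.0759), 2 (0.138) or 3 (0.115).

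Of 8 dendritic cell markers 3 passed the filter: Itgax, Zbtb46, which endothelial cells also express, and, named after its values were seen, Clec9a. Itgax had mean normalized counts of 18.3 (Sham-Veh) and 21.2 (TAC-Veh) with vehicle and of 11.1 (Sham-THZ1) and 10.8 (TAC-THZ1) with the drug. The median log2 fold change of the 3 was −0.78 in TAC-THZ1 against TAC-Veh and −0.68 in Sham-THZ1 against Sham-Veh, opposite in sign to Cd74 and H2-Ab1 in the first, and Itgax had adjusted p-values of 0.0693 and 0.717 (limma). T cell markers summed to 28.7 to 56.1 in any library, with 1 of 6 tested. Of 4 neutrophil markers 2 were called higher in TAC-THZ1 against TAC-Veh and 2 were not called. The 2 called were S100a8 (3.66, adjusted p = 0.00768, limma) and S100a9 (3.75, adjusted p = 0.00862). Without replicates 1 and 3 they were at 1.83 (adjusted p = 0.129) and 1.90 (adjusted p = 0.148, limma).

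Markers of tissue cells changed too. Over all genes, 21.4% were called higher and 23.6% lower in TAC-Veh against Sham-Veh, and 15.1% and 14.2% in TAC-THZ1 against TAC-Veh. Of 6 cardiomyocyte markers 4 were called lower in TAC-Veh and 4 higher in TAC-THZ1 against TAC-Veh, and Myh6, the α-myosin heavy chain, was at −1.20 (adjusted p = 0.000101, limma) and 0.47 (adjusted p = 0.0701). Their sum was 586236 to 846001 normalized counts in TAC-Veh and 922745 to 1132073 in TAC-THZ1. Of 4 fibroblast markers 2 were called higher in TAC-Veh and 2 lower in TAC-THZ1 against TAC-Veh, the matrix gene Dcn among them (1.07, adjusted p = 4.25e-06, and −0.56, adjusted p = 0.00273). Of 4 endothelial markers 2 were called lower in each of these comparisons. Cd74 shared its directions with the cardiomyocyte markers and Ctss, in TAC-Veh, with the fibroblast markers, and the part of tissue makeup in the class II values was not tested.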

How the data were processed

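Class II genes were examined in 16 mouse ventricle libraries, 4 per group, and the genes and lists were chosen with earlier results of these data known. The authors aligned single-end reads to mm9 with TopHat2 2.1.1, counted them per gene with HTSeq in reverse-stranded mode, and divided by DESeq2 size factors over all mouse libraries. Signal in the deposited table is thus a read count over a size factor. Dividing by the smallest step gave whole reads for 100% of values (tolerance 0.01), which served the alternatives with edgeR 4.0.16 and DESeq2 1.42.0.

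Log2(normalized count + 1) was fitted with limma 3.58.1 (R 4.3.3), with 1 mean per group, no covariates and eBayes with trend, over 13331 genes with at least 10 normalized counts in at least 4 libraries. P-values were adjusted by Benjamini and Hochberg over all of them and called under 0.05. The steps were tested on simulated data. Ratios to Ptprc and Csf1r were compared with exact permutation tests. Named were the 8 genes, called genes of 3 pathway lists, H2-DMb2, the most abundant markers and the 5 genes of most like pattern. Promoters came from RefSeq (GRCm38.p6) and positions from NCBIM37. Alternatives covered pseudocount, filter, scaling, groups fitted, weights, replicate block, count models, thresholds and single libraries. Labels gave no batch or date, so none could be compared.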

Additional observations from a re-analysis of the deposited data

Results flagged for a closer look

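Sham-Veh replicate 1 stood apart from the other 3 libraries of its group in 3 class II genes. H2-Aa was at 2165 normalized counts there against 1377 to 1433, H2-Ab1 at 1511 against 964 to 1034, and H2-DMb1 at 121 against 63.4 to 68.1. In each case the gap to the nearest library was a larger share of the group's range than Dixon's critical value for 4 samples. Of 32 combinations of gene and group 3 were picked out in this way, and chance picks out about 1 in 20.

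The THZ1 effect differed between TAC and sham for 3 genes of the 3 pathway lists, by the interaction term in limma. The lists held 20, 10 and 9 tested genes, and 10.0% of all genes tested were called. The difference was 0.37 on the log2 scale for Nfyc (adjusted p = 0.0176), −0.44 for Ifngr1 (adjusted p = 0.0467) and 0.39 for Ifngr2 (adjusted p = 0.0236).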

How the results depend on the processing

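With 4 libraries a group, most class II calls lay near the threshold. In TAC-Veh against Sham-Veh 2 genes were called: 1 under quantile scaling, array weights, a log2 fold change of at least 0.89 or an adjusted p under 0.01, 0 at a log2 fold change of at least 1, and 1 to 2 with any 1 library left out. In TAC-THZ1 against TAC-Veh 3 were called: 1 with no filter or with a fold threshold of 0.89 or 1, and 0 with only the groups compared, array weights or an adjusted p under 0.01. Without TAC-THZ1 replicates 1 and 3 none of these 3 was called, and the 1 gene called was Ctss, which was lower. Those replicates were the highest of the group for Ciita, Cd74, H2-Ab1 and Ctss, so these fold changes could only fall. With any 1 library left out, 0 to 5 were called. In TAC-THZ1 against Sham-THZ1 none was called, 1 by DESeq2 and 0 to 2 with any 1 library left out. The interaction had none, and 1 without replicates 1 and 3 (Ctss, −0.88, adjusted p = 0.0449, limma). Of the ratios 12 were without overlap, and 12 to 21 with any 1 library left out, 21 without TAC-Veh replicate 1. Groups without overlap stay apart when a library is left out, so this count could only stay or rise. The causes were not tested. H2-Ab1 in TAC was called with only the groups compared (adjusted p = 0.0404).

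Signs turned for H2-DMb1 in TAC (0.03): −0.10 under quantile scaling, −0.0025 by edgeR, −0.0073 by DESeq2, −0.063 to 0.24 with any 1 library left out. In TAC-THZ1 against TAC-Veh, without replicates 1 and 3, H2-DMa was at −0.10 and H2-DMb1 at −0.27, the latter −0.019 to 0.50 with any 1 library left out. Against Sham-THZ1, without the same replicates, H2-Ab1 was at −0.018, H2-DMa −0.084, Cd74 −0.13 and Ciita −0.21, and Cd74 was at −0.027 to 0.32 with any 1 library left out. In sham, ranges with any 1 library left out were −0.24 to 0.020 for H2-Ab1, −0.20 to 0.038 for Cd74 and −0.11 to 0.068 for Ctss. The replicate block gave 2, 3, 0, 0 and 0 calls in the 5 comparisons and ended that of Irf1 (adjusted p = 0.0578). Same-numbered libraries had r of −0.43 to 0.16, and 2 of 16 correlated best with their own number, so the numbers did not pair them.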
